A study of Mesocricetus auratus with 8 samples.

Results

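Acetylcholine receptor and synapse assembly genes were described in cultured satellite cells (SCs), which renew muscle, of the Syrian hamster, a hibernating rodent. The 10 genes were taken by symbol from the expression table, with a list that uses no measured value but was drawn up with earlier results of these data known. They were Chrna1, Chrnb1, Chrnd, Chrng, Chrm3, Musk, Rapsn, Dok7, Lrp4 and Agrn, and each was listed with values in all 8 libraries. The table held values for 17590 genes among 31581 entries, and all 10 genes were among those with values.

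Bulk RNA-seq libraries of polyA RNA were made from cultured SCs before and after cold exposure, with 4 libraries in each group. All cells were of WT genotype and came from hindlimb muscle of sexually mature males. They were enriched by preplating, which lowers the share of fibroblasts, and were grown on Matrigel in a growth medium with fetal bovine serum, chick embryo extract and basic fibroblast growth factor. Both groups had 48 h of culture at 37°C and then 24 h in that medium with 100 mM HEPES at 37°C. Control libraries were collected at that point, and cold libraries after a further 24 h at 4°C in the same medium. Every cold library was thus collected 24 h later than the controls, and no library held at 37°C for that added time was analysed here, so temperature and time cannot be told apart. The titles place all 4 controls on day 3, whereas the treatment labels of control replicates 1 to 4 name 3, 4, 5 and 6 days at 37°C. The study describes its libraries as biological replicates, and neither it nor the labels tie a library to an animal or a culture, so the p-values below measure the spread between these libraries.

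At the neuromuscular synapse, acetylcholine opens a cation channel of alpha, beta and delta subunits together with a gamma subunit in fetal or denervated muscle, or an epsilon subunit in innervated adult muscle. Agrin binds the receptor Lrp4, which activates the kinase MuSK. Dok7 is the adaptor that MuSK needs inside the cell, and rapsyn anchors the channels in dense clusters. Muscle cells in culture make these products without a nerve once they leave the proliferating state, which is why the genes are also read as markers of myogenic differentiation. Chrm3 encodes a muscarinic receptor, which signals through a G protein and is no part of the channel.

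Library depth was between 16530747 and 18533801 expected counts. The first principal component (54.5% of the variance) set replicates 1 and 2 of either group apart from replicates 3 and 4, and the second (17.9%) set cold apart from control. Libraries with the same replicate number deviated together, so edgeR was fitted without and with a block for the replicate number. For some genes only the values with the block are printed. The 5 myogenic markers Pax7, Myod1, Myf5, Cdh15 and Des were present, with a summed level of 1564 to 1931 TPM in control and 1522 to 1790 TPM in cold libraries. Of these 5, Cdh15 (174 ± 30.6 to 140 ± 21.2 TPM, log2 fold change −0.32, edgeR adjusted p = 1.19e-05) and Myod1 (−0.13, adjusted p = 0.02) fell in the fit with the block. Without it their edgeR adjusted p was 0.826 and 0.999. The part of these 2 genes in the results below was not tested. The 6 fibroblast markers summed to 1072 to 1490 and 1064 to 1435 TPM. Thy1 alone (568 ± 95.3 and 579 ± 76.1 TPM) made up a large part of that sum, and which cells the transcripts came from was not tested. Summed levels were 3.21 to 4.57 and 2.93 to 4.31 TPM for Schwann cell markers, 0.53 to 1.35 and 0.68 to 1.18 TPM for motor neuron markers, 1.96 to 3.87 and 2.01 to 3.63 TPM for endothelial markers, and 25.9 to 54.2 and 26.4 to 55.7 TPM for macrophage markers. The motor neuron marker Slc18a3 was listed at 0 in every library. No marker of these other cell types passed an adjusted p of 0.05 in either fit, by DESeq2 or by limma, and 1 fibroblast marker had an unadjusted p under 0.05, in the fit with the block.

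The subunit genes were abundant before cold exposure. Levels are given in TPM, a scale that divides by transcript length and allows genes to be compared. Chrnd was the highest, at 360 ± 19.8 TPM (mean ± SD, n = 4), which placed it at rank 391 of the 17590 genes. Rapsn (181 ± 11.4 TPM) and Chrna1 (168 ± 13.0 TPM) followed, and their ranges overlapped, although Rapsn was above Chrna1 within each of the 4 control libraries. Chrng (87.5 ± 8.28 TPM), Dok7 (78.1 ± 5.69 TPM) and Chrnb1 (73.7 ± 6.47 TPM) formed a group in which neighbors overlapped. Lrp4 stood at 49.3 ± 7.40 TPM, Musk at 12.1 ± 1.27 TPM and Agrn at 7.43 ± 0.403 TPM, with no overlap between them or with the genes above. Chrm3 was close to the detection limit at 0.445 ± 0.225 TPM. After cold exposure the order changed at a single place: Chrng went from the fourth to the sixth rank, where its range overlapped with those of Chrnb1 and Lrp4.

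After cold exposure, Chrna1, Chrnd, Chrng, Rapsn and Musk were modestly lower, at 77.2% to 87.9% of the control level in the fit with the block, while Lrp4 (102.5%) and Agrn (97.6%) were close to it. Of the 10 genes, 9 had enough counts to be tested (Chrm3 did not), and 8 of these had a fitted level below control. Without the block, edgeR's quasi-likelihood test called 0 of the 9 at an adjusted p of 0.05, against 0.072% of all 12506 genes called lower, and 5 were lower at an unadjusted p under 0.05, against 4.13% of all genes. DESeq2, which also kept Chrm3, called 3 of 10 (Chrm3, Chrna1 and Chrnd), against 1.02% of genes lower. With limma on log2 TPM, 0 of 10 were called, against 0.029% of genes lower. With the replicate block, edgeR called 5 of the 9 lower (Chrna1, Chrnd, Chrng, Musk and Rapsn) and 0 higher, against 4.07% of all genes lower and 1.26% higher. The median log2 fold change of the 9 genes was −0.18 without and −0.19 with the block, and over all tested genes it was 0.01 in both fits. None of the 9 reached a log2 fold change of −1, the size that the study required of its DEGs, in either of these fits, where 0.04% and 0.808% of all genes were past both thresholds and lower. In bulk RNA, fewer cells that express a gene and less of its RNA per cell cannot be told apart.

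**Figure D1:**
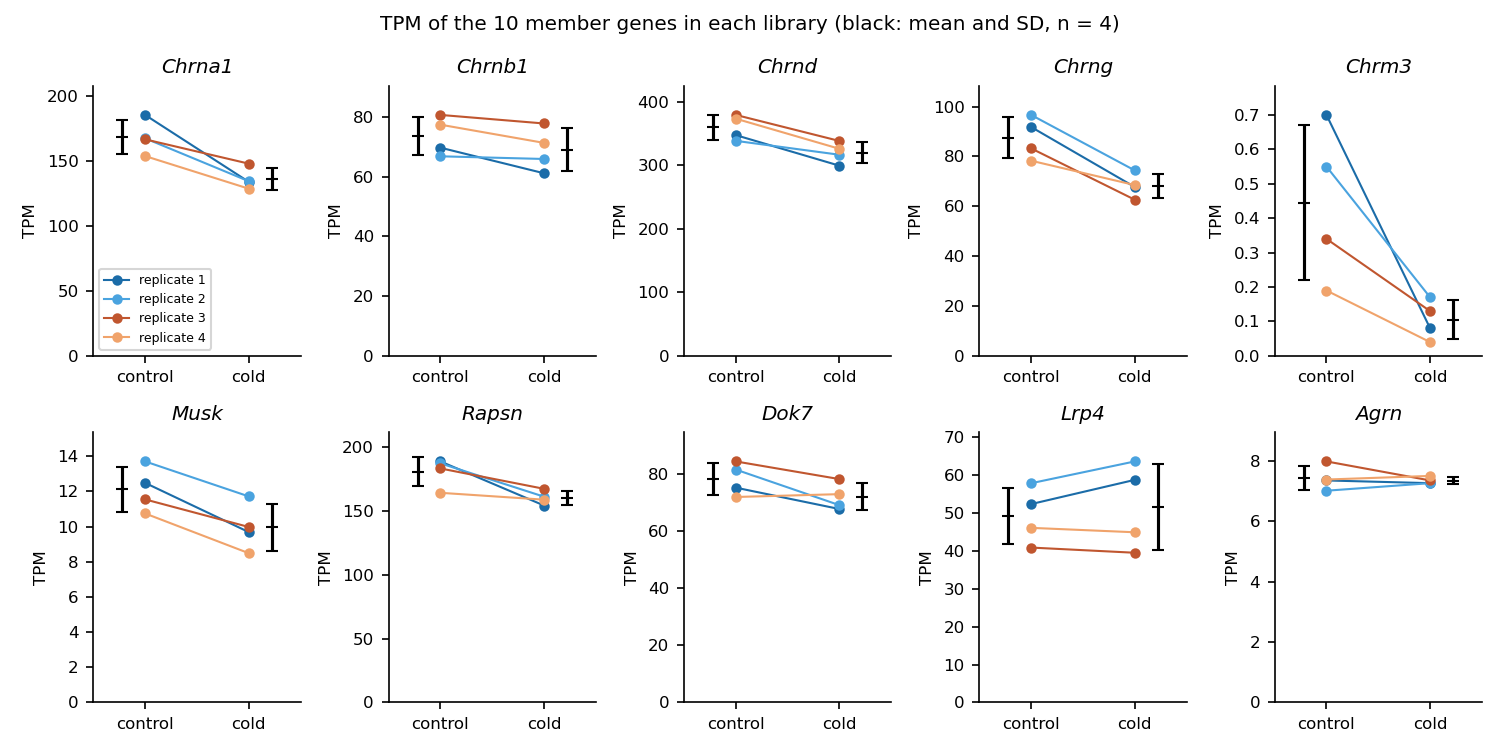
TPM (y axis, linear and starting at 0) of each of the 10 genes in the 4 control and 4 cold libraries. Colored lines join libraries with the same replicate number, and black bars give the mean and SD of each group (n = 4). Chrna1, Chrnd, Chrng and Chrm3 had every cold library below every control library, while Lrp4 and Agrn had mixed slopes.

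The alpha subunit gene Chrna1 (gene ID 101833462) encodes the part of the channel that holds the acetylcholine binding site. Its level was 185.16, 167.21, 166.4 and 153.56 TPM in control replicates 1 to 4, and 133.73, 134.22, 147.72 and 128.48 TPM in cold replicates 1 to 4. The groups did not overlap, with the lowest control (replicate 4) only slightly above the highest cold library (replicate 3). Chrna1 fell in the fit with the block, with a log2 fold change of −0.32 (standard error 0.05, 95% interval −0.42 to −0.21, edgeR adjusted p = 0.000441), which left 80.4% of the control level. Without the block the log2 fold change was the same, the standard error was 0.08 and the adjusted p was 0.275.

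The gamma subunit gene Chrng (101844222) encodes the subunit of the fetal form of the channel. It was at 91.83, 96.67, 83.25 and 78.3 TPM in control and at 67.74, 74.4, 62.65 and 68.53 TPM in cold libraries. All cold libraries lay below all controls, and the pair differences on the log2 TPM scale were −0.44, −0.38, −0.41 and −0.19. Among the genes that could be tested, Chrng had the lowest fitted value, −0.37 with the block (standard error 0.05, 95% interval −0.48 to −0.27, edgeR adjusted p = 5.68e-05), or 77.2% of control. The fit without the block gave −0.38 (standard error 0.10, adjusted p = 0.307).

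The delta subunit gene Chrnd (101844488), the most abundant of the 10, was at 347.83, 338.81, 379.65 and 373.75 TPM in control and at 299.65, 316.89, 338.6 and 326.25 TPM in cold libraries. The groups parted by the narrowest of margins, between control replicate 2 and cold replicate 3, and every pair was lower in the cold. Chrnd fell by 0.19 on the log2 scale with the block (standard error 0.03, 95% interval −0.26 to −0.11, edgeR adjusted p = 0.00185), to 87.9% of control. Without the block its adjusted p was 0.25 with edgeR and 0.00573 with DESeq2.

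The beta subunit gene Chrnb1 (101841597) did not pass the test in either edgeR fit. It was at 69.75, 66.86, 80.72 and 77.45 TPM in control and at 61.17, 65.96, 77.85 and 71.35 TPM in cold libraries. Each cold library was below its own control, but replicates 3 and 4 were above replicates 1 and 2 in both groups, and the groups overlapped. The log2 fold change with the block was −0.12 (95% interval −0.21 to −0.02, edgeR adjusted p = 0.149), or 92.2% of control.

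Chrne, which encodes the epsilon subunit of the adult channel, was not among the 10 genes and is given for comparison. It was at 66.27, 65.7, 73.91 and 51.45 TPM in control and at 66.77, 66.96, 77.25 and 55.08 TPM in cold libraries. Each cold library was slightly above its own control, and the groups overlapped almost fully. The log2 fold change with the block was 0.03 (95% interval −0.06 to 0.13, edgeR adjusted p = 0.773). The epsilon transcript was below the gamma transcript in every library but cold replicate 3. The Chrng to Chrne ratio of TPM was 1.39, 1.47, 1.13 and 1.52 in control and 1.01, 1.11, 0.811 and 1.24 in cold libraries, lower in the cold in each pair. This ratio was chosen after its values were seen, so it is given with no test.

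**Figure D2:**
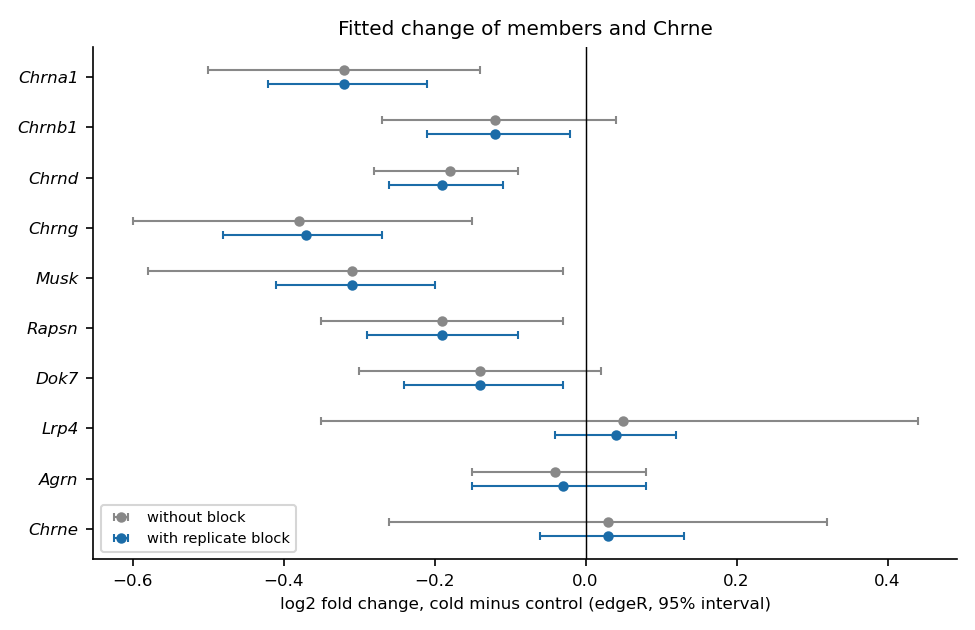
Fitted log2 fold change (x axis, cold minus control) of the 9 tested genes and Chrne, as points with 95% intervals from edgeR, without the block (gray) and with the replicate block (blue). The points nearly coincide between the fits. With the block the intervals of Lrp4, Agrn and Chrne include 0 and the others lie below it.

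The makeup of the subunit transcripts was described as shares of the summed TPM of the 5 muscle subunits. Chrnd held 47.8 ± 2.39% of the sum in control and 48.5 ± 1.15% in cold libraries (mean ± SD, n = 4 each). Chrna1 held 22.3 ± 1.57% and 20.6 ± 0.66%, Chrng 11.6 ± 1.22% and 10.4 ± 1.04%, Chrnb1 9.78 ± 0.752% and 10.4 ± 0.675%, and Chrne 8.52 ± 1.05% and 10.1 ± 1.10%. The ranges of each of these 5 shares overlapped between the groups. Within pairs, the shares of Chrna1 and Chrng were lower in the cold in 4 of 4 pairs, those of Chrnb1 and Chrne were higher in 4 of 4, and that of Chrnd was mixed. The summed TPM itself was 735 to 784 in control libraries (754 ± 23.6) and 629 to 704 in cold libraries (660 ± 31.7), with no overlap. These shares are of transcript levels and were not tested.

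**Figure D3:**
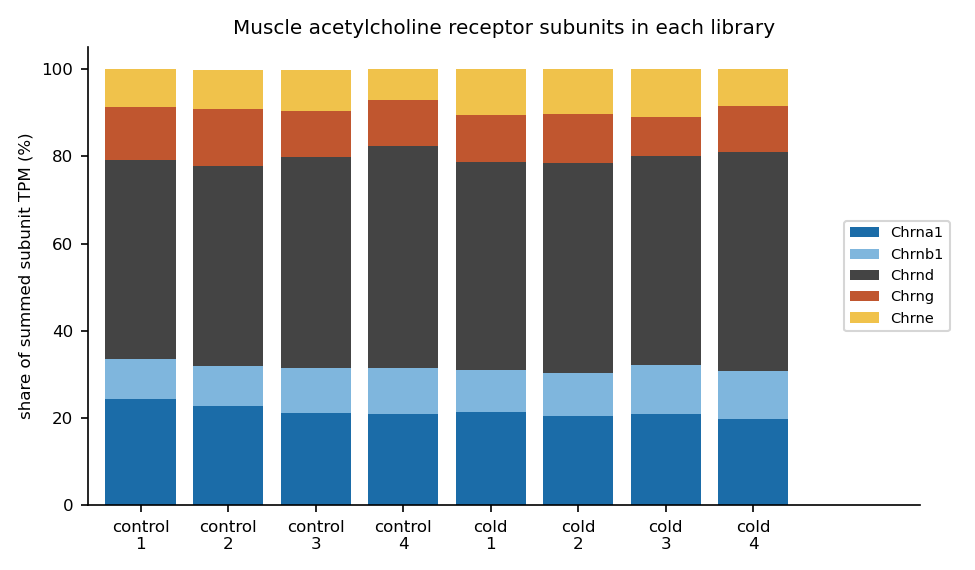
Share of the summed TPM of the 5 muscle subunit genes (y axis, percent) in each control and cold library, as stacked bars. Chrnd makes up from 45.7% to 50.9% of every bar, and no subunit's range of shares is separate between control and cold libraries.

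Rapsn (101823866) encodes rapsyn, which holds the channels in clusters beneath the membrane. It was at 188.88, 187.36, 183.37 and 164.28 TPM in control and at 154.31, 161.22, 167.4 and 158.89 TPM in cold libraries. A single control library, replicate 4, lay below the highest cold library, and the other controls were above all cold libraries. Rapsn fell in the fit with the block by 0.19 on the log2 scale (standard error 0.05, 95% interval −0.29 to −0.09, edgeR adjusted p = 0.0244), to 87.9% of control. With the block, the log2 fold change was −0.14 without replicate 1 (adjusted p = 0.135) and −0.17 without replicate 2 (adjusted p = 0.178), and limma on log2 TPM gave −0.17 with all replicates (adjusted p = 0.119), so the call was lost in each of these fits. In replicates 3 and 4 alone, the log2 fold change with the block was −0.07.

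Of the genes that act ahead of rapsyn, the kinase gene Musk (101841499) passed the test in the fit with the block, and Lrp4, Agrn and Dok7 did not. Musk was at 12.49, 13.71, 11.55 and 10.75 TPM in control and at 9.69, 11.72, 9.98 and 8.49 TPM in cold libraries. Cold replicate 2 was the exception to the separation, as it lay above control replicates 3 and 4. Every cold library was below its own control, by 0.37, 0.23, 0.21 and 0.34 on the log2 TPM scale. Musk fell in the fit with the block (log2 fold change −0.31, standard error 0.05, 95% interval −0.41 to −0.20, edgeR adjusted p = 0.000374), to 80.9% of control. The adjusted p without the block was 0.684.

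Lrp4 (101841409), the agrin receptor, was at 52.4, 57.91, 40.91 and 46.12 TPM in control and at 58.8, 63.67, 39.54 and 44.95 TPM in cold libraries. The cold value was higher in replicates 1 and 2 and lower in replicates 3 and 4, so the sign depended on the replicate. Its log2 fold change with the block was 0.04 (95% interval −0.04 to 0.12, edgeR adjusted p = 0.672), so a change as large as that of Musk lay outside its interval. In the fit without the block, that interval was wide, from −0.35 to 0.44.

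Agrn (101831248) encodes agrin, of which muscle cells make a form as well as nerve. It was at 7.35, 7.01, 7.98 and 7.38 TPM in control and at 7.26, 7.26, 7.35 and 7.5 TPM in cold libraries. The cold values fell inside the control range. The log2 fold change with the block was −0.03 (95% interval −0.15 to 0.08, edgeR adjusted p = 0.798).

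Dok7 (101830417), the adaptor of MuSK, was at 75.06, 81.38, 84.23 and 71.8 TPM in control and at 67.59, 68.94, 78.05 and 72.79 TPM in cold libraries. Cold values were lower in 3 of 4 pairs, and replicate 4 was the exception. The log2 fold change with the block was −0.14 (95% interval −0.24 to −0.03, edgeR adjusted p = 0.131). The call depended on replicate 4 and on the filter, since the adjusted p was 0.00849 without that replicate and 0.048 with no filter, both with the block.

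Chrm3 (101827236), the muscarinic receptor gene, showed the lowest cold to control ratio at the lowest counts. It was at 0.7, 0.55, 0.34 and 0.19 TPM in control and at 0.08, 0.17, 0.13 and 0.04 TPM in cold libraries. The counts behind these values were 34, 28, 15 and 9 in control and 4, 8, 6 and 2 in cold libraries, and the last of these lay under the detection floor of 3 counts. All cold libraries were below all controls, and mean TPM in the cold was 23.6% of control. Chrm3 failed the count filter of both edgeR fits, and in fits to fewer libraries it passed that filter only through its control libraries. Where the filter was removed, its log2 fold change was −2.13 (edgeR adjusted p = 0.266), and −2.12 with the block as well (edgeR adjusted p = 1.17e-05). On log2 TPM with limma and no block, the value depended on the pseudocount and was −1.98 at 0.01 TPM, −1.35 at 0.1 TPM and −0.38 at 1 TPM (adjusted p between 0.377 and 0.468). DESeq2 gave −2.15 (adjusted p = 0.0466), so Chrm3 was the only one of the 10 genes past both DEG thresholds in any fit (0.529% of genes were, with DESeq2 and lower), and its call depended on the filter, the tool and the block.

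In TPM alone, 4 of the 10 genes (Chrna1, Chrnd, Chrng and Chrm3) had cold values entirely below control, and among the 9 tested genes this held for 3, against 2.41% of all tested genes. For each of these 4 the exact two-sided permutation test gave p = 0.0286, the smallest that 4 libraries against 4 allow. The exact permutation p was 0.0571 for Rapsn, 0.0857 for Musk, 0.171 for Dok7, 0.4 for Chrnb1, 0.771 for Agrn and 0.8 for Lrp4, with n = 4 in each group. These p-values are not adjusted for the 10 genes, and the permutation did not use the pairing of libraries by replicate number. Cold libraries were lower in 4 of 4 pairs for Chrna1, Chrnb1, Chrnd, Chrng, Chrm3, Musk and Rapsn, and 10.5% of all tested genes had that pattern.

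The size of the difference varied between replicates. The median pair difference over the 9 tested genes was −0.22 for replicates 1 and 2, −0.13 for replicate 3 and −0.12 for replicate 4 on the log2 TPM scale. In a fit with the block to replicates 1 and 2 alone, the log2 fold changes of Chrna1, Chrng, Rapsn and Dok7 were −0.46, −0.47, −0.31 and −0.25. In replicates 3 and 4 alone they were −0.18, −0.29, −0.07 and −0.03. Chrnd moved less between these fits, from −0.22 to −0.17, and Musk from −0.36 to −0.26. Whether the effect differed between these replicates was not tested. Chrna1, Chrnd, Chrng and Musk passed an adjusted p of 0.05 in both of these fits with the block, in which 9.43% and 2.29% of all genes were called lower. With 2 libraries per group and the block, these p-values rest largely on the spread shared across genes.

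The proportions of partners within a library do not depend on how libraries are scaled, and 6 such ratios were compared. The permutation test of these ratios did not use the pairing of libraries by replicate number. Rapsn over Chrna1 was the only ratio whose groups did not overlap. Its log2 value was 0.03, 0.16, 0.14 and 0.10 in control and 0.21, 0.26, 0.18 and 0.31 in cold libraries, with a mean ratio of 1.08 in control and 1.18 in cold libraries. The exact permutation p was 0.0286 with n = 4 per group and 0.171 after Benjamini-Hochberg adjustment over the 6 ratios. With 4 libraries against 4, the adjusted p could not have passed 0.05 unless at least 4 of the 6 ratios had reached the smallest p. Chrnb1 over Chrna1 and Chrnd over Chrna1 were higher in the cold in 4 of 4 pairs, by 0.21 and 0.14 on the log2 scale (exact permutation p = 0.171 and 0.229, both 0.343 adjusted). Musk over Lrp4 was lower in 4 of 4 pairs, by 0.34 (a mean ratio of 0.247 in control and 0.195 in cold, exact permutation p = 0.114, adjusted 0.343). The ratio of Chrng to Chrna1 differed by −0.05 (exact permutation p = 0.714, adjusted 0.714) and that of Dok7 to Musk by 0.17 (exact permutation p = 0.286, adjusted 0.343).

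**Figure D4:**
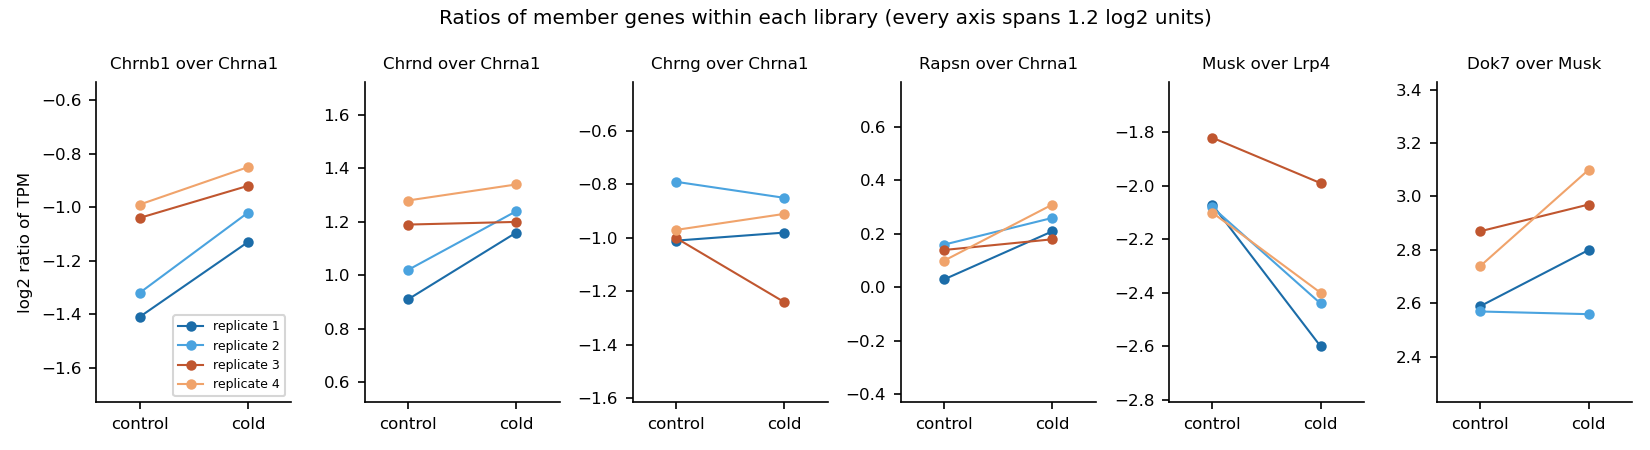
Log2 ratio of TPM (y axis, each panel spanning the same number of log2 units) for 6 pairs of partner genes, with lines joining control and cold libraries of the same replicate number. Rapsn over Chrna1 is higher in the cold in every replicate with no overlap between groups, and Musk over Lrp4 is lower in every replicate but overlaps because cold replicate 3 lies above 3 of the 4 controls.

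Other genes of the same synapse were taken from 6 lists. None of them passed an adjusted p of 0.05 in the edgeR fit or the limma fit without the block, and the calls below come from the fit with it unless another is named. Among the other nicotinic subunits, 10 of 12 had values, 9 of these stayed under 1 TPM in every library, and Chrne and Chrna7 were the only 2 tested, with 0 called by edgeR, DESeq2 or limma and 0 at an unadjusted p under 0.05. Of the other 4 muscarinic receptors, only Chrm2 had enough counts, with 0.818 ± 0.210 TPM before and 1.03 ± 0.180 TPM after cold exposure (log2 fold change 0.32, 95% interval −0.02 to 0.66, edgeR adjusted p = 0.305).

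Of 17 genes of the synaptic cytoskeleton, matrix and cholinesterase, 14 were tested, 3 fell and 1 rose, against 4.07% of all genes called lower and 1.26% called higher. The median log2 fold change was −0.04. Dtna, which encodes alpha-dystrobrevin of the dystrophin complex, was at 13.44, 10.85, 4.64 and 5.8 TPM in control and at 3.96, 4.52, 3.19 and 2.7 TPM in cold libraries. Its cold values were all below control, and the fitted change was −1.19 on the log2 scale (standard error 0.13, adjusted p = 5.17e-06 with edgeR). The syntrophin gene Sntb1 (3.95 ± 1.73 to 2.10 ± 0.850 TPM, log2 fold change −0.93, adjusted p = 6.64e-07) and the muscle sodium channel gene Scn4a (6.01 ± 1.00 to 4.43 ± 0.480 TPM, −0.46, adjusted p = 0.000833) also fell, and only Scn4a had no overlap between groups. Lama4, a synaptic laminin subunit named here after its values were seen, rose by 0.21 (adjusted p = 0.0353). With the same block, the call of Lama4 was lost with DESeq2 and with limma, and that of Scn4a with limma. DESeq2 without the block called Dtna alone in this list, and 3 genes had an unadjusted p under 0.05 in the edgeR fit without the block.

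All 22 genes described here as MuSK signaling partners were tested, and 1 fell, which is near the 4.07% of all genes called lower, with a list median of 0.03. The 1 gene was Sorbs2 (log2 fold change −0.35, standard error 0.06, edgeR adjusted p = 0.000354), which encodes a scaffold protein that binds Abl kinases. It was at 18.14, 19.08, 9.42 and 11.33 TPM in control and at 14.49, 16.89, 7.58 and 7.52 TPM in cold libraries. Replicates 1 and 2 were above replicates 3 and 4 in both groups, and every pair was lower in the cold. With the same block, DESeq2 also called Sorbs2, and limma called 0 of the 22. The kinase genes Abl2 (0.19, 95% interval 0.04 to 0.34, adjusted p = 0.152) and Src (0.16, 95% interval −0.06 to 0.38, adjusted p = 0.449) had the next largest values and did not pass. Without the block 1 of the 22 had an unadjusted p under 0.05 with edgeR and 1 with DESeq2, which called 0.

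Of 17 genes of neuregulin signaling and the transcriptional regulators, 15 were tested and 5 fell, against 4.07% of all genes called lower, with a list median of −0.01. The regulator Myog, which encodes myogenin, was at 1007.6, 1016.4, 449.27 and 479.75 TPM in control and at 564.03, 627.92, 313.71 and 291.76 TPM in cold libraries. Replicates 1 and 2 were well above replicates 3 and 4 in both groups, so the groups overlapped, but every pair was lower in the cold and the fitted change was −0.71 on the log2 scale (standard error 0.04, adjusted p = 2.96e-09 with edgeR). Myf6, another myogenic regulator, changed by −0.83 (adjusted p = 0.000614) and Hdac9, a histone deacetylase gene, by −0.99 (adjusted p = 0.000541). The neuregulin receptor gene Erbb3 (−0.47, adjusted p = 5.89e-06) and Myod1 (−0.13, adjusted p = 0.02) were named after their values were seen. With the same block, DESeq2 called the same 5 genes, and limma called Erbb3, Myog and Myf6 but not Hdac9 or Myod1. The fitted changes of Hdac9, Myf6 and Myog were larger in size than that of any tested receptor gene, a difference that was not tested. Myog is also a marker of myogenic differentiation, and the part of that state in the values of the receptor genes was not tested. Without the block 2 of these 15 genes had an unadjusted p under 0.05 with edgeR and 2 with DESeq2, which called 0.

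Of 10 genes for receptor folding, assembly and glycosylation, 9 had values and 7 were tested by edgeR. None passed in either edgeR fit, by DESeq2 or by limma, and 0 had an unadjusted p under 0.05 with edgeR, with a list median of −0.03. The lowest values were those of Rer1 (−0.09, edgeR adjusted p = 0.42), Gmppb (−0.08, adjusted p = 0.541) and Unc50 (−0.05, adjusted p = 0.732), and all 3 intervals included 0.

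**Figure D5:**
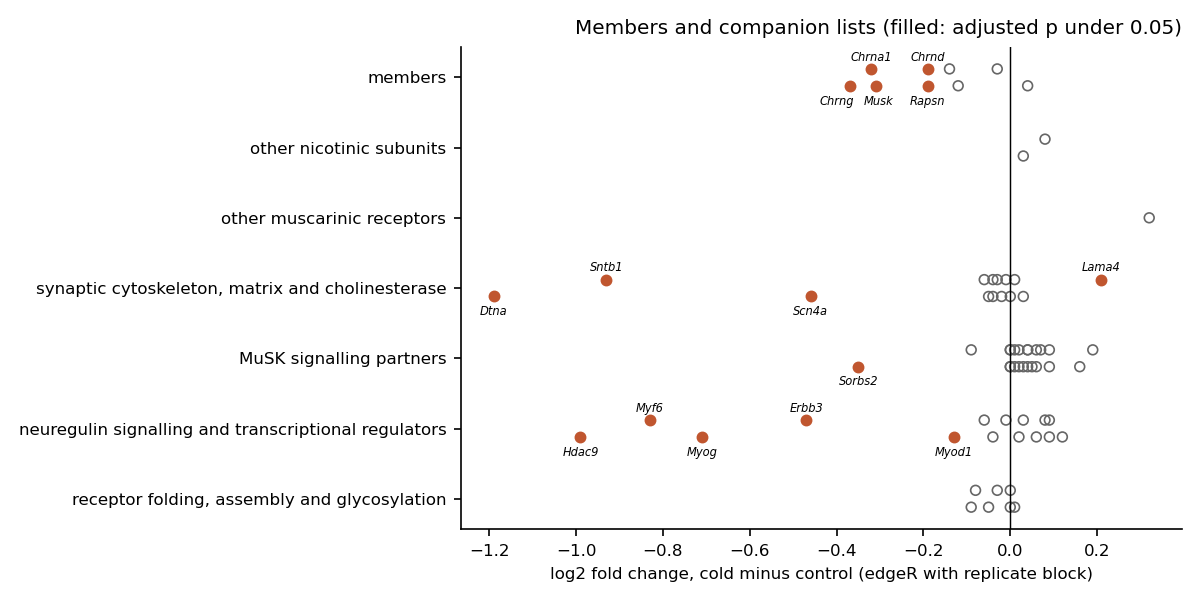
Log2 fold change (x axis, cold minus control, edgeR with the replicate block) of each tested gene among the 10 genes ("members") and in the 6 lists of other synapse genes. Filled points had an adjusted p under 0.05 and carry their names. The 5 filled points among the 10 genes lie between −0.37 and −0.19. Those of the regulator list reach −0.99, and the lowest is Dtna of the cytoskeleton list at −1.19.

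The profile of the 4 channel genes Chrna1, Chrnb1, Chrnd and Chrng over the 8 libraries was averaged and compared with 10478 other genes. The nearest profiles were those of Lypla1 (root mean square difference 0.0497 in log2 CPM), Ank1 (0.0502) and Atp6v0c (0.0503). Rapsn (0.0576) was about as close as these, Dok7 (0.0841) was less close, and Agrn (0.118), Musk (0.152) and Lrp4 (0.297) lay farther away. The channel genes themselves lay at 0.0611 (Chrnd), 0.0758 (Chrna1), 0.114 (Chrnb1) and 0.132 (Chrng) from their average. Agrn was thus nearer to it than Chrng. This likeness is a description over the same 8 libraries, in which all genes share the replicates and conditions.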

How the data were processed

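The authors deposited a single table of the series with an expected count, a TPM value and a normalized read count (a signal) for each gene and library. Expected counts are the authors' estimates from paired-end reads and are not normalized. TPM values were scaled by the authors per library and by transcript length. The normalized counts were deposited as a signal scaled per library and were not used. The submitters' processing notes name HISAT and HISAT2. The counting program, genome build, strand setting and annotation are not given in the sources used here. Every count of the 10 genes was a whole number in all 8 libraries. All 17590 gene IDs matched a RefSeq table used for names only. Positions, overlap with neighboring genes and promoter motifs were not analysed here.

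After rounding, expected counts went into edgeR 4.0.16 (R 4.3.3; TMM, filterByExpr, quasi-likelihood F test, 12506 genes) on 4 cold against 4 control libraries, with Benjamini-Hochberg adjustment over all genes tested. DEGs were defined, as in the study, by an absolute log2 fold change of 1 or more with an adjusted p under 0.05. Standard errors are the size of the log2 fold change over the root of F. Alternatives, 29 fits in all, included DESeq2 1.42.0 and limma 3.58.1 on log2 TPM, and fits joining the block to another choice were added after seeing the data. TPM and 6 log2 ratios (pseudocount 0.01 TPM) were compared by exact two-sided permutation of all 70 arrangements (scipy 1.17.1, Python 3.11.15), and figures were drawn with matplotlib 3.10.9. The script was tested on simulated counts that held no replicate effect, so this test does not cover how the block handles one.

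Groups share replicate numbers 1 to 4 in titles and column names. Deviations from group means correlated, across genes, at 0.61, 0.62, 0.65 and 0.66 between same-numbered libraries, so the numbers were taken to pair the libraries. Other pairs gave 0.43 to 0.59 or −0.55 to −0.61. Chi-square per gene was 2.46 (control) and 2.78 (cold) between replicates 1 and 2, and 6.99 and 4.78 between replicates 3 and 4. For the other pairs within a group it was 18.9 to 27. No library was counted as a copy of another, but whether each stands for a separate source is not known.

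Depth was 16530747 to 18533801 expected counts per library, and the floor of 3 counts covers counting error only, since no molecular identifiers are described. The 10 genes, the lists and the tests were chosen with earlier results of these data known. Named genes are the 10, Chrne, nicotinic and muscarinic receptors with a mean of at least 1 TPM, the 3 tested genes with the largest absolute change in each other list, and the 3 genes with the nearest profiles. Chrna7, Erbb3, Myod1, Lama4 and the cell type markers are named outside that rule. A gene of the MuSK partner list is not reported here.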

Additional observations from a re-analysis of the deposited data

Results flagged for a closer look

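Among 34 groups of 4 values examined (the TPM and ratios of each group), 1 held a library far from the other 3, where about 1.7 were expected from chance at a rate of about 1 in 20. It was the log2 ratio of Musk over Lrp4 in control libraries, which was −1.82 in control replicate 3 and −2.07, −2.08 and −2.10 in the others. The gap to the nearest library was 0.884 of the whole range, above the critical value for 4 samples. Cold replicate 3 had the highest ratio of the cold libraries as well, −1.99. In control replicate 3 Lrp4 was at its lowest control level (40.91 TPM) while Musk was inside the control range (11.55 TPM).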

How the results depend on the processing

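The number of genes at an adjusted p under 0.05 was 0 without the block and depended on whether the pairing of libraries was modeled. With the share of all genes called lower in the same fit in parentheses, it was 5 with the replicate block (4.07%), 3 with DESeq2 (1.02%) and 7 in replicates 1 and 2 alone (6.85%). With the block and a second choice, it was 8 in replicates 1 and 2 (9.43%), 4 in replicates 3 and 4 (2.29%), 7 with no filter (4.04%), 6 with DESeq2 (2.37%) and 2 with limma (1.95%), and 4, 4, 5 and 7 without replicate 1, 2, 3 and 4 (2.82%, 2.71%, 3.78% and 4.88%). It stayed at 0 in the other fits without the block, in which at most 0.381% of all genes were called lower (replicates 3 and 4 alone). Past both DEG thresholds there were 0 genes, or 1 (Chrm3) with DESeq2, with replicates 1 and 2 alone, and with the block in replicates 1 and 2, without replicate 4, with no filter or with DESeq2. Chrm3 is also among the genes in the above counts of 3, 6, 7 and 8. In edgeR fits to fewer libraries it passed the count filter through its control libraries, where it was higher, so its calls there depend on that group. Leaving out 1 library without the block gave 0 throughout. At an adjusted p under 0.05 these fits called between 0% and 0.357% of all genes lower. The median log2 fold change of −0.18 over 9 genes was −0.08 in replicates 3 and 4 alone, with or without the block. In replicates 1 and 2 alone it was −0.28, again with or without the block, but over 10 genes that include Chrm3. With the block, the calls of Chrna1 and Chrng held in 10 of 10 fits, those of Chrnd and Musk in 9 (adjusted p = 0.0536 and 0.067 with limma) and that of Rapsn in 6. Lrp4 reversed from 0.05 to −0.03 in replicates 3 and 4 alone, with or without the block, and ranged from −0.08 to 0.16 when a library was left out. Negative values came without control replicate 3 (−0.05) or 4 (−0.00) and without cold replicate 1 (−0.02) or 2 (−0.08). Ratios without overlap numbered 1, and 2 without cold replicate 3, and 1 without any other library or with a larger pseudocount. Genes whose groups did not overlap numbered 4 in TPM and 4 to 5 with a library left out. In CPM with TMM factors they numbered 3, where Chrm3 had no value because of the count filter. In the lists of other synapse genes, the 0 calls of the fit without the block rose to at most 7 (cytoskeleton), 5 (MuSK partners), 6 (regulators) and 1 (muscarinic), each in replicates 1 and 2 with the block, where 17.1% of all genes were called in either direction. With the block and limma they were 2, 0, 3 and 0, against 4, 1, 5 and 0 with the block and edgeR. They were 0 throughout for the nicotinic and folding lists. The cause of these moves was not tested. The other 9 genes had a negative sign in every fit that gave them a value. Depth limited Chrm3 most, with cold counts of 2 to 8.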
